A study of Gallus gallus with 3 samples.

Results

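The interneuron LIM homeodomain factors of the spinal neural tube are described here as the table rows with the symbols LHX1, LHX5, LMX1B, LMX1A, LHX2 and LHX9, which are 6 of 15916 genes. All 6 symbols were present, each on 1 row. They were followed in wild-type (WT) White Leghorn chickens, in 2 libraries from the embryonic stage HH14 of Hamburger and Hamilton and 1 library from the later stage HH19. Each library held polyadenylated RNA of neural tube sections from about 25 pooled embryos, taken at brachial level and reaching back toward the thorax. Neighbouring mesoderm, endoderm, notochord and surface ectoderm had been dissected away, and the labels give no treatment that separates the stages. The same protocol, which names HH14, stands in the label of the HH19 library.

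LIM homeodomain factors carry a pair of zinc-binding LIM domains in front of a DNA-binding homeodomain. The LIM domains bind the adaptor LDB1, and the mixture of LIM factors in a newborn neuron helps to set its class. In the spinal cord of mouse and chick, LHX1 and LHX5 mark several classes of dorsal and ventral interneurons, and LHX1 also marks limb motor neurons of the lateral group. LHX2 and LHX9 mark the dorsalmost class, dI1. LMX1B marks dI5 neurons, and LMX1A marks the roof plate, a signalling centre at the dorsal midline where LMX1B is also expressed.

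Expression was given as TPM, a length-normalised share of all transcripts. The HH14 libraries shared 1 column, so each HH14 value is the authors' single value, without an SD, and HH19 had 1 library. Between the columns size alone was therefore used. A gene counted as higher, or as lower, when log2(TPM + 1) at HH19 differed by at least 1 from that at HH14, provided its mean over the 3 libraries was at least 1 TPM. The pseudocount of 1 understates the change of low genes. Of 11097 genes that passed this filter, 3.93% were higher and 1.38% lower. The median over them was 0.05 on the log2 scale. Low genes could pass the filter through their HH19 value alone, so a count over the genes of a list that passed is not a count over the whole list.

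In the lowest genes the values stepped by whole reads, which allowed the reads of a gene in each library to be recovered for 6923 genes (43.5%), of which 2134 had a mean of at least 1 TPM. Every value contains 1 added read, so no gene is at 0. The labels do not say which HH14 library is which, so they are called library A and library B, B being 1.28 times as deep. Recovery succeeded for LHX1, LHX5, LMX1B, LHX2 and LHX9 but not for LMX1A. Intervals on reads below are exact 95% Poisson intervals and cover counting error only. Total reads are unknown.

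LHX5 and LHX1 were the members called higher at HH19, and no member was called lower. LHX5 stood at 1.47 TPM in the HH14 column and at 12.9 TPM in that of HH19, a log2 difference of 2.50 or 8.81-fold in plain TPM. Only 9 of the 11097 genes had a larger difference. LHX1 stood at 4.65 and 21.0 TPM, a log2 difference of 1.96 or 4.52-fold in TPM, with 35 genes above it. Of the 4 members that passed the filter 2 were thus higher, beside 3.93% of all genes. LHX1 and LHX5 were known to differ between these columns when they were chosen, so the counts are a description. In pooled tissue, more cells with a transcript and more transcript per cell cannot be told apart.

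**Figure D1:**
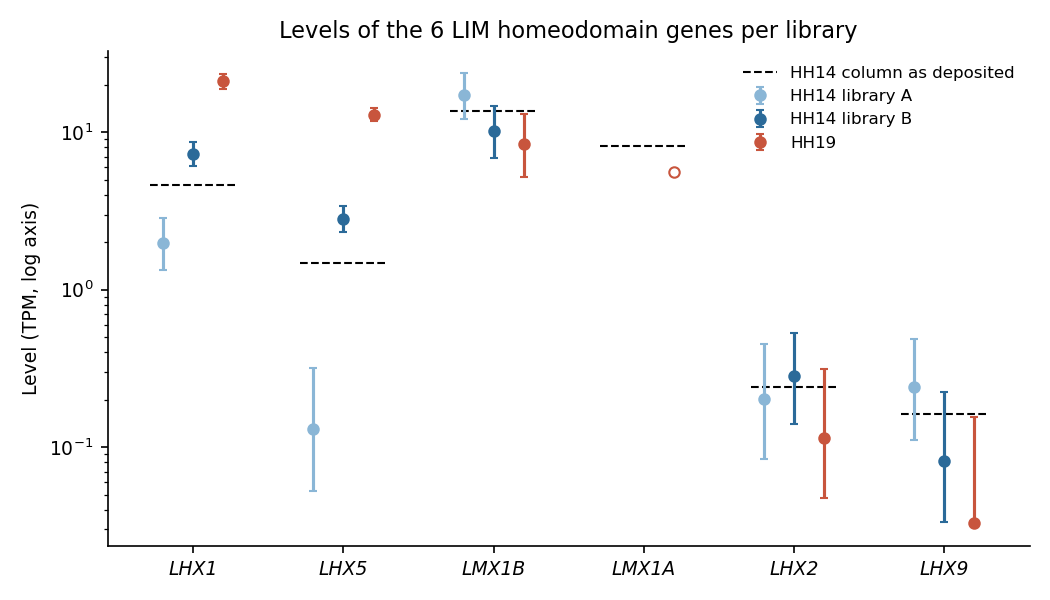
Level in TPM on a log axis of each member in HH14 library A, HH14 library B and HH19, with exact 95% Poisson counting intervals. Dashed lines are the deposited HH14 values, and the open circle is LMX1A, whose libraries could not be separated. LHX1 and LHX5 step up from A to B to HH19. The 3 intervals of LMX1B overlap, which alone does not show that its libraries are alike.

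The HH14 libraries were far apart in LHX5. Library A held 3 reads of LHX5 (interval 0.62 to 8.77), library B 109 (89.5 to 131) and HH19 416 (377 to 458). In TPM, with the added read, these were 0.131, 2.80 and 12.9 TPM. LHX5 was thus near its floor in library A, clearly read in library B and highest at HH19, and the 3 intervals do not overlap. By reads, library B lay 28.4-fold above library A (interval 9.45 to 140), and HH19 lay 4.64-fold above library B (3.75 to 5.78). On the log2(TPM + 1) scale the difference between the HH14 libraries, 1.75, was almost as large as that between HH19 and library B, 1.87.

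LHX1 followed the same order. It had 28 reads in library A (18.6 to 40.5), 136 in library B (114 to 161) and 323 at HH19 (289 to 360). The levels were 1.98, 7.31 and 21.0 TPM. Library B was 3.79-fold above library A by reads (2.51 to 5.92), and HH19 was 2.89-fold above library B (2.36 to 3.56). The log2 difference was 1.48 between the HH14 libraries and 1.41 between HH19 and library B. LHX1 and LHX5 are therefore called higher at HH19 against either HH14 library alone, but the size of the difference depends on which library is used.

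Few genes separated the HH14 libraries so widely in that direction. Of the 2134 recovered genes that passed the filter, 4.03% differed by at least 1 in log2(TPM + 1) toward library B and 7.45% toward library A. Only 11 genes had a larger difference toward library B than LHX5, and 24 a larger one than LHX1. A rise from A to B to HH19 in itself was common, found in 31.5% of these genes. By the same size rule HH19 was above library B in 9.61% of them and below it in 2.01%, and it was above library A in 14.3% and below it in 6.75%.

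limma was fitted to the 3 recovered libraries over all 2134 genes, two-sided with Benjamini-Hochberg adjustment. LHX5 differed by 2.75 (SE 0.67) on the log2 scale, with an unadjusted p of 0.0027 and an adjusted p of 0.3004. LHX1 differed by 2.15 (SE 0.67), with an adjusted limma p of 0.371. Neither passed the threshold of 0.05. The fit called 1 gene higher (0.0469%) and 0 lower, with 210 genes (9.84%) at an unadjusted p below 0.05. Without the filter on low genes, which brings 6923 genes into the fit, the same differences had adjusted p-values of 0.00013 for LHX5 and 0.0196 for LHX1. Over all settings tried in which they were recovered, the adjusted p reached up to 0.828 for LHX5 and up to 0.490 for LHX1. The single HH19 library gives no spread, so these p-values rest on the spread between the 2 HH14 libraries alone. limma moderates the spread of each gene toward that of the other genes fitted, so an SE is not that of the gene alone. Without the filter the SE was 0.51 for LHX5 and 0.60 for LHX1. Nothing in the labels says whether the pools came from separate egg batches.

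LMX1B and LMX1A lay below their HH14 values, within 2-fold. LMX1B had 13.7 TPM at the earlier and 8.39 TPM at the later stage, a log2 difference of -0.65 or a 1.63-fold lower level, and 424 of the 11097 genes had a more negative difference. LMX1A had 8.18 and 5.59 TPM, a log2 difference of -0.48 or a 1.46-fold lower level. At HH14 the order of levels was LMX1B, LMX1A, LHX1, LHX5, LHX2 and LHX9. At HH19 LHX1 and LHX5 stood above LMX1B and LMX1A. By rank among all genes LHX1 stood at 8857 and then 5709 and LHX5 at 10456 and 7084, while LMX1B stood at 6646 and 8054 and LMX1A at 7806 and 8796.

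The LMX1B level rests on few reads. One read of LMX1B was worth 0.442 TPM at HH19, 6.81 times as much as a read of LHX1, and 16.0% of recovered genes had a 1-read value at least as large. LMX1B had 36 reads in library A (25.2 to 49.8), 27 in library B (17.8 to 39.3) and 18 at HH19 (10.7 to 28.4), or 17.2, 10.2 and 8.39 TPM. The true reads could be a common multiple of these numbers, which would leave the TPM values as they are and narrow the intervals. HH19 stood at 0.81 of library B by reads (interval 0.42 to 1.53), so a difference between them was not detectable at this depth. Against library A it stood at 0.47 (0.25 to 0.86), and library B stood at 0.59 of library A (0.34 to 0.99). In log2(TPM + 1) library B minus A was -0.71 and HH19 minus library B was -0.25. The lower value at HH19 than in the HH14 column thus rested mainly on library A. In limma LMX1B differed by -0.60 (SE 0.58), with an adjusted p of 0.824.

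**Figure D2:**
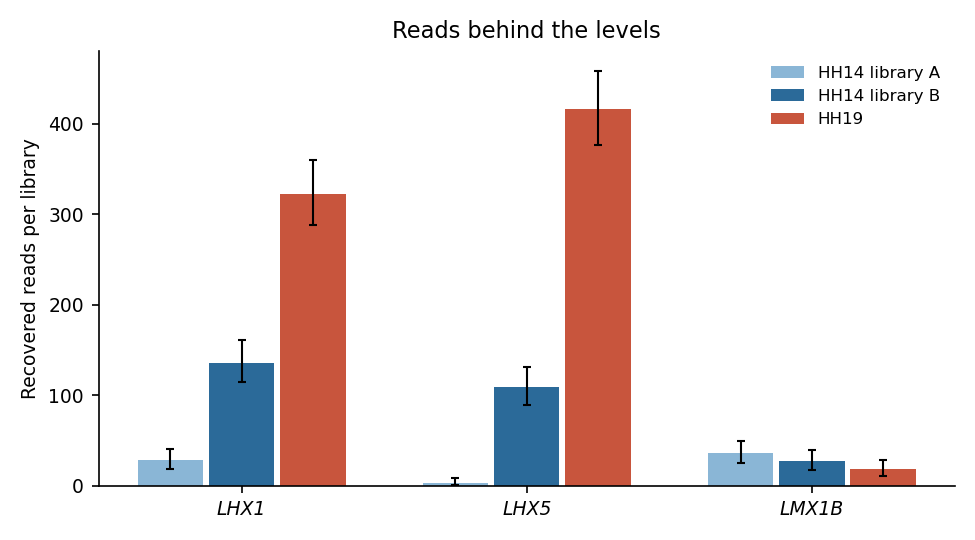
Recovered reads of LHX1, LHX5 and LMX1B in HH14 library A, HH14 library B and HH19, without the added read, with exact 95% Poisson intervals. LHX5 runs from 3 to 109 to 416 reads, whereas LMX1B has 36, 27 and 18 reads.

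LHX2 and LHX9, the dI1 factors, were close to the floor in all libraries. LHX2 had 0.242 and 0.115 TPM at the successive stages, which came from 4 reads in library A, 8 in library B and 2 at HH19. LHX9 had 0.162 and 0.0329 TPM, from 6 reads in library A, 2 in library B and 0 at HH19. For LHX9 at HH19 the interval on 0 reads reaches 3.69 reads, or 0.154 TPM with the added read. The libraries overlap in their counting intervals for each gene, and by reads HH19 stood at 0.30 of library B for LHX2 (interval 0.031 to 1.52). No direction can be read from values this low.

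Among the other LIM homeodomain genes the motor neuron factors were higher at HH19 too. ISL1, a factor of motor neurons and of dI3 interneurons, had 2.25 and 12.9 TPM, LHX3 4.805 and 17.7 TPM, and LHX4 6.20 and 17.8 TPM, the latter pair acting in motor neurons and V2 interneurons. Of 12 family genes listed, 11 were measured and 7 passed the filter. Of those 7, 5 were higher (3.93% of all genes), 0 lower (1.38%) and 2 within 2-fold, the last being LMX1B and LMX1A. LHX6 and LHX8, known from the forebrain, were low, at 0.0476 and 0.203 TPM and at 0.664 and 0.404 TPM.

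**Figure D3:**
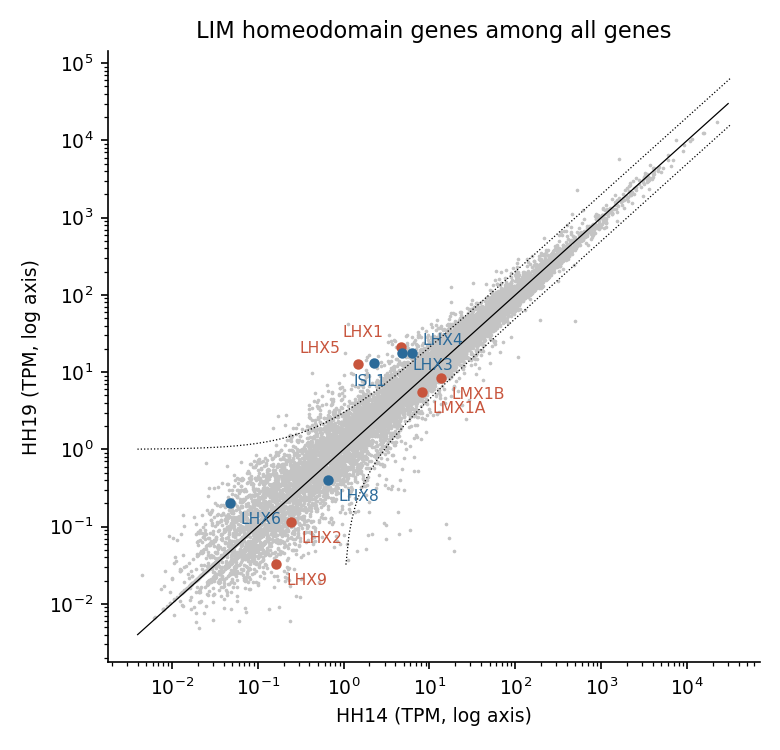
Level at HH19 against level at HH14 in TPM on log axes for all 15916 genes (grey), with the 6 members in red and the other 5 measured LIM homeodomain genes in blue. The solid line marks equal levels and the dotted lines a log2(TPM + 1) difference of 1. LHX1, LHX5, ISL1, LHX3 and LHX4 lie above the upper dotted line.

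Of the partners of LIM factors 10 passed the filter, and all lay within 2-fold on the log2(TPM + 1) scale. So did most genes, as 3.93% of all genes that passed were higher and 1.38% lower. The median log2 difference of the partners was -0.25. LDB1, the adaptor that joins LIM factors, had 77.9 and 125 TPM at the successive stages, and LDB2 had 41.1 and 36.9 TPM. SSBP3, which binds LDB proteins, had 286 and 425 TPM, and SSBP2 had 16.2 and 9.45 TPM. The LIM-only proteins compete with LIM homeodomain factors for LDB1, and their values went either way. LMO1 had 19.2 and 36.5 TPM and LMO2 1.92 and 3.28 TPM, whereas LMO3 had 22.8 and 14.003 TPM and LMO4 33.2 and 16.8 TPM. RLIM, a ubiquitin ligase for LDB proteins, had 88.0 and 68.8 TPM. LMO7, a large cytoplasmic LIM protein outside the LMO1 to LMO4 group, had 3.36 and 1.35 TPM, more than 2-fold apart in plain TPM. LDB1 and SSBP3 were more abundant than any member at each stage.

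Among dorsal interneuron factors other than the members, 8 were measured and 4 passed the filter. All 4 were higher, beside 3.93% of all genes that passed, with a median log2 difference of 1.65. PAX2, found with LHX1 and LHX5 in inhibitory interneurons, had 1.36 and 4.45 TPM. Its recovered levels were 1.08, 1.64 and 4.45 TPM in library A, library B and HH19, with a smaller step between the HH14 libraries than in LHX1 or LHX5. ISL1, above, and PRDM8, at 11.0 and 24.6 TPM, were also among the higher ones.

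Of the ventral interneuron factors other than the members 6 passed the filter. Of these 5 were higher and 0 lower, beside 3.93% and 1.38% of all genes that passed. UNCX and GATA2 lay below 1 TPM at HH14 and passed only through their HH19 values, which leaves little room for another call. UNCX had 0.498 and 4.39 TPM, VSX1, a V2 factor, 3.41 and 13.2 TPM, and GATA2, a V2b factor, 0.672 and 3.01 TPM. FOXP2, at 17.0 and 19.7 TPM, was within 2-fold. Library B exceeded library A in 8 of the 9 recovered genes of this list, beside 35.5% of all recovered genes and 48.5% of those that passed the filter. Several of the 8 rest on a few reads, such as EVX2 with 1 and 4. Genes without a read enter the 35.5%, and the added read alone places them higher in library A. Among the dorsal factors other than the members library B was higher in 3 of 6, and the difference between the lists was not tested. EN1, the V1 interneuron factor, had 3 reads in library A, 65 in library B and 126 at HH19, and is shown because V1 neurons carry LHX1 and LHX5. EN1 and LHX5 were alike in being near the floor in library A and well read in library B. The gene EN1, with 0.391 and 1.70 TPM, did not pass the filter and was chosen after its values were seen.

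**Figure D4:**
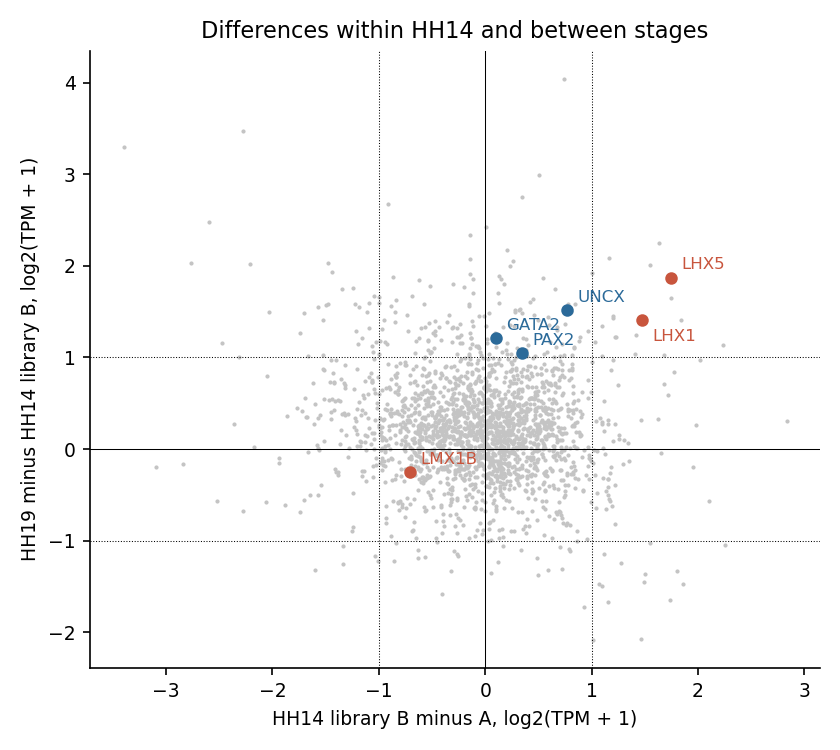
Difference between HH14 libraries (x axis, library B minus A) and between HH19 and HH14 library B (y axis), in log2(TPM + 1), for 2134 recovered genes (grey). Members are red and the recovered interneuron factors PAX2, GATA2 and UNCX blue, and dotted lines mark differences of 1. LHX5 and LHX1 exceed 1 on each axis, and LMX1B is negative on each.

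Progenitor factors of dorsal and intermediate domains, from which LHX1 and LHX5 neurons arise, lay above their HH14 value in all 8 genes that passed the filter, and 4 were higher by at least 2-fold. Of all genes that passed, 55.6% lay above their HH14 value and 3.93% were called higher. PTF1A, which directs dorsal progenitors to the inhibitory dI4 fate marked by LHX1, LHX5 and PAX2, had 0.424 and 9.76 TPM. It had 1 read in library A, 5 in library B and 80 at HH19, so unlike LHX5 it was near the floor in each HH14 library. PTF1A passed the filter only through its HH19 value. PRDM12, a factor of V1 progenitors, had 7.34 and 32.6 TPM, and DBX1 and DBX2, of V0 and neighbouring domains, 57.2 and 155 TPM and 76.4 and 165 TPM. MSX1 (98.5 and 181 TPM) and OLIG3 (48.4 and 65.1 TPM) were within 2-fold. The bHLH genes ATOH1, NEUROG1 and NEUROG2 were not matched by symbol.

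The roof plate list, in which LMX1A and LMX1B belong, held no gene called higher or lower among 9 that passed the filter. Most genes were not called, with 3.93% of all that passed higher and 1.38% lower. The median log2 difference of the list was -0.02. Beside the LMX1 genes, WNT3A had 8.32 and 6.21 TPM, BMP5 5.89 and 4.03 TPM, BMP4 9.12 and 8.97 TPM and MSX2 19.9 and 19.6 TPM. BMP7, at 31.5 and 35.7 TPM, and MSX1 were the most abundant. LMX1A and LMX1B had the most negative differences of these 9 genes, but neither reached the size that was called.

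Of genes that mark transmitter type, SLC32A1, the vesicular transporter of GABA and glycine, was called higher, at 0.502 and 3.41 TPM. It passed the filter only through its HH19 value. It had 2 reads in library A, 61 in library B and 183 at HH19, an order shared with LHX5. It was the 1 gene called of the 3 inhibitory genes within the filter, beside 3.93% of all genes called higher. GAD1, a GABA-synthesising enzyme, had 1.61 and 0.908 TPM. The 1 excitatory gene within the filter was not called, beside 3.93% of all genes higher and 1.38% lower. SLC17A6, the vesicular glutamate transporter of most spinal excitatory neurons, had 30 reads at HH19.

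Of 6 commissural axon genes 2 were higher, beside 3.93% of all genes. ROBO3, which is controlled by Lhx2 and Lhx9 in mouse dI1 neurons, had 1.999 and 16.9 TPM, while LHX2 and LHX9 themselves were near the floor. CNTN2, an adhesion molecule of commissural and motor axons, had 6.99 and 23.2 TPM. NEO1 (86.5 and 85.3 TPM) and NRCAM (27.1 and 27.4 TPM) were within 2-fold. Among 9 general neuronal genes there were 7 higher (3.93% of all genes) and 0 lower ones (1.38%), and their median log2 difference was 1.34. Among them STMN2 had 17.9 and 127 TPM, NEFM 59.5 and 203 TPM, NEFL 46.0 and 138 TPM and SNAP25 1.53 and 5.66 TPM. SCG3 (34.5 and 65.1 TPM) and DCX (24.5 and 21.0 TPM) were within 2-fold. The part of these neuronal genes in the LHX1 and LHX5 differences was not tested.

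**Figure D5:**
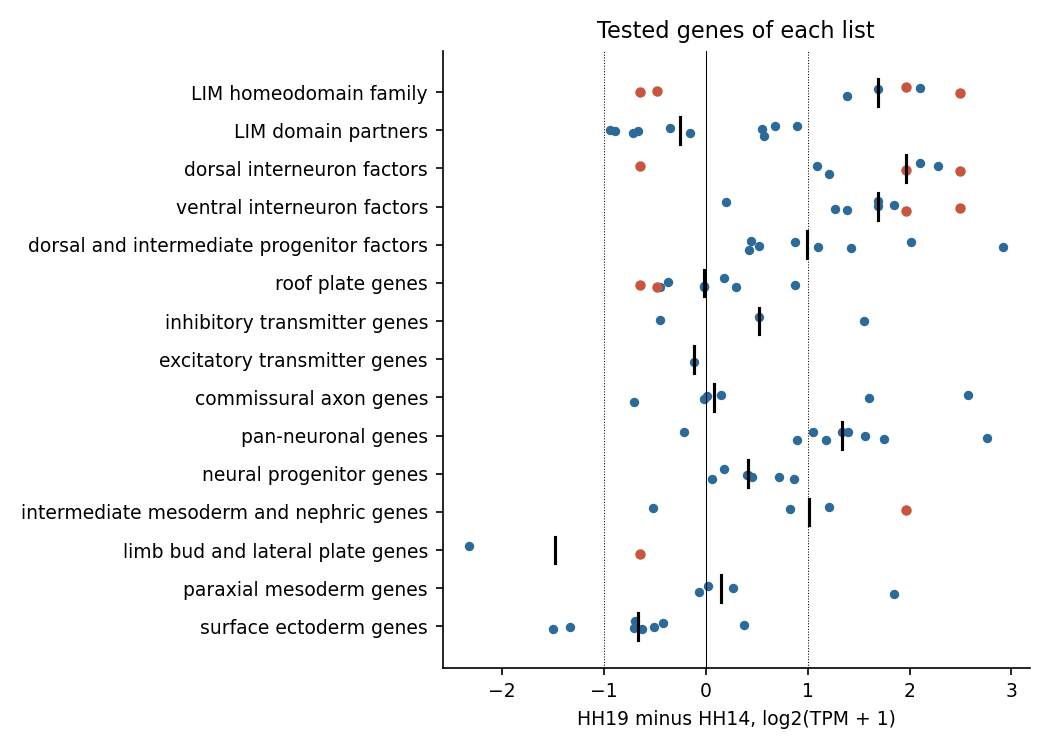
Difference between HH19 and HH14 in log2(TPM + 1) for each gene that passed the filter, by list, with members in red, other genes in blue and the list median as a black bar. Dotted lines mark differences of 1. The 7 LIM homeodomain genes fall into 5 above 1 and 2 below 0, and the 10 partners all lie between the dotted lines.

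Tissue identity was checked by marker lists. All 7 neural progenitor genes lay within 2-fold, as did most genes, with 3.93% of all that passed higher and 1.38% lower. Among the 7 were VIM (1455 and 1987 TPM), FABP7 (1433 and 1616 TPM) and SOX2 (178 and 185 TPM). The summed level of the 7 was 3987 and 5248 TPM. LHX1 is also a gene of the early kidney. Of 8 other intermediate mesoderm and nephric genes measured, 3 passed the filter and 1, PAX2, was higher, beside 3.93% of all genes. RET, at 2.29 and 4.83 TPM, was within 2-fold on the log2(TPM + 1) scale. At HH19, where LHX1 was highest, OSR1, OSR2, GATA3 and EMX2 had 0 recovered reads. The summed level of the 6 recovered genes other than LHX1 was 3.78, 2.15 and 4.72 TPM in A, B and HH19. PAX2, which is also an interneuron gene, gave 1.08, 1.64 and 4.45 TPM of these sums. It thus made up most of the sum in B and at HH19. EMX2 had 54 reads in library A and 1 in library B.

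LMX1B, LHX2 and LHX9 are also genes of the limb bud. The other 8 limb bud and lateral plate genes, all recovered, summed to 11.8, 3.17 and 3.30 TPM in A, B and HH19. The sum was highest in library A, where LMX1B was highest too, but HAND1 alone made up most of it there. HAND1 had 8.21 TPM (95 reads) in A and 0.601 TPM (8 reads) in B, with 0 reads at HH19. Library B was above A in 2 of the 8 genes and HH19 above B in 5, beside 35.5% and 72.5% of all recovered genes. The added read is worth least in library B, so a gene without reads counts as lowest there. TBX5 and PRRX2, with 0 reads in A and in B, were placed in this way. These counts and shares therefore reflect the added read in part. TBX5, the forelimb factor, had 0 reads in each HH14 library and 2 at HH19. The 6 recovered surface ectoderm genes summed to 24.2, 14.5 and 6.60 TPM in A, B and HH19. Of 8 that passed the filter 2 were called lower, TFAP2A (8.81 and 2.48 TPM) and WNT6 (4.71 and 1.27 TPM), beside 1.38% of all genes. EPCAM, at 74.2 and 47.6 TPM, and GRHL3, at 6.30 and 8.48 TPM, were within 2-fold. The 10 paraxial mesoderm genes summed to 4.74, 8.46 and 12.4 TPM. Of 4 that passed the filter 1 was called, UNCX, which was higher, beside 3.93% of all genes. UNCX is also an interneuron gene. UNCX gave 0.107, 0.889 and 4.39 TPM of these sums in A, B and HH19, and so most of the step from B to HH19. UNCX passed the filter only through its HH19 value. TCF15 (1.90 and 2.50 TPM) and PAX1 (1.42 and 1.30 TPM) were the most abundant within 2-fold. The part of such cells in the LIM gene differences was not tested.

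The genes nearest to each member, those reported here, were found by Euclidean distance over the 2 columns in log2(TPM + 1). For LHX1 they were IFI27L2 (4.85 and 21.5 TPM, distance 0.060), GFRA4, PMEPA1, CPLX2 and PGPEP1. For LHX5 they were HCRT (1.83 and 14.2 TPM, distance 0.24), MGAT5B, UTS2B, ISL1 and MEF2B, and no gene came within 0.1. For LMX1B they were ZNF407 (13.0 and 8.50 TPM, distance 0.076), MIER3, MIR181B1 and ZBTB41, and for LMX1A SSFA2 (8.07 and 5.52 TPM, distance 0.023), CHGB, ARSK, ATP11A and TRAF6. LHX2 and LHX9, near the floor, had 142 and 189 genes within 0.1. Distances over 2 values say only that levels are alike.

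By gene order in the RefSeq table of assembly GRCg7b, which is not the build of the files, the measured coding neighbours of the members did not all move with them. AATF, next to LHX1, had 54.4 and 54.6 TPM. RBM19, on one side of LHX5, had 95.7 and 78.5 TPM, and SDSL, on the other side, had 0.520 and 3.53 TPM, a log2 difference of 1.58. ZBTB43, next to LMX1B, had 13.0 and 7.56 TPM. RXRG, next to LMX1A, had 3.79 and 3.67 TPM. The labels name an mRNA kit and no strand setting, so antisense reads of overlapping genes cannot be told apart from reads of the genes themselves. The neighbours were chosen by position, after the data had been seen.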

How the data were processed

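The authors deposited TPM per Ensembl gene in 1 table, with 1 column for the 2 HH14 libraries and 1 for the HH19 library. The submitters' processing notes name the build galGal4 and the tools TopHat2, SAMtools, DESeq2 and FastQC, with no role or version. How reads were counted, and how the HH14 pair became 1 column, is not given in the sources used. The columns summed to 957154 and 946462 TPM and were compared as deposited.

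The mean TPM counted the HH14 value for 2 libraries. Reads per library were recovered by searching up to 3000 HH19 reads for whole reads that fit the ratio of the columns. In 1426 genes without a read, HH19 was 1.07 times HH14. Library A gave 56.2% of the HH14 value of 1 read, taking the column as the mean of the libraries. A solution was kept where at most 0.003 were expected by chance. Summed over the kept genes this was 1.54. That sum leaves out the genes searched without a kept solution, so it understates the chance solutions expected over the whole search. The number expected by chance was 0.0020 for LHX1 and 0.0022 for LHX5, both near the limit, and 2.8e-05 for LMX1B. Ratios of reads have exact conditional binomial 95% intervals.

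limma used an intensity trend on log2(TPM + 1). The steps were also run on simulated data, drawn with the library shares fitted here and 1 added read. Such data share the model of the recovery and cannot test it, and the outcome is not reported here. Named genes were all members, their 5 nearest genes, all LIM family genes and partners, and in other lists the 4 largest differences called and the 2 most abundant genes within 2-fold. Some genes that the rule names are not reported here but stay in all counts. A few genes outside it are named for their library values or list role. Members and lists were chosen with earlier results of these data known. Where rows shared a symbol, that with the highest mean was used. No sequences or coordinates were used. The alternatives tried were median-ratio scaling, quantile normalization, pseudocounts of 0.1 and 5, a filter at a mean of 5 TPM or none, each HH14 library alone, no trend and chance limits of 0.001 and 0.01. The software was limma 3.58.1 in R 4.3.3, and Python 3.11.15 with numba 0.67.0, numpy 2.4.6, scipy 1.17.1, pandas 2.3.3 and matplotlib 3.10.9.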

Additional observations from a re-analysis of the deposited data

How the results depend on the processing

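LHX1 and LHX5 were called higher, and LMX1B and LMX1A lay below HH14 within 2-fold, under every pseudocount, filter and scaling tried. Against a single HH14 library, LHX1 differed by 1.41 to 2.88, LHX5 by 1.87 to 3.62 and LMX1B by -0.96 to -0.25 (log2). The counts over all genes moved more. With a pseudocount of 0.1 there were 279 lower genes, and with 5 there were 149 higher and 46 lower ones. At a mean of at least 5 TPM it was 261 higher and 85 lower. Among recovered genes, 74 were lower against the HH14 mean and 43 to 144 against 1 library. In limma 3 genes were higher at a pseudocount of 5, 4 at a mean of at least 5 TPM, 0 at a chance limit of 0.001 (154 at an unadjusted p below 0.05) and 3 at 0.01. With no filter 191 were higher and 16 lower, and LHX1 (2.15) and LHX5 (2.75) passed. The cause was not tested. At a chance limit of 0.001 LHX1 and LHX5 were not recovered, so their library values rest on the limit of 0.003. No paired analysis was possible because HH19 has 1 library and the HH14 libraries carry no number in the table. Read depth limits LHX2 and LHX9, and also LMX1B unless its true reads are a multiple of those recovered.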

Other observations

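Over the 3 recovered libraries, a comparison chosen after the data were seen, the recovered genes nearest to LHX1 were FERD3L (1.42, 8.78 and 18.2 TPM in HH14 library A, HH14 library B and HH19), IFI27L2, MIR1682 and MID2. Those nearest to LHX5 were UTS2B (0.775, 2.98 and 15.9 TPM), CDK5R2 (0.340, 1.68 and 9.14 TPM), MEF2B, ADD2 and KCNIP2. Each of these LHX5 neighbours was lowest in library A and highest at HH19, an order favoured by choosing them on these same levels. None came closer to LHX5 than a distance of 0.71. CDK5R2 is an activator of the neuronal kinase CDK5, and KCNIP2 a subunit of potassium channels.

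At a chance limit of 0.01 the library values of LHX3 were recovered too, at 1.90 TPM in A and 7.71 TPM in B, beside 17.7 TPM at HH19. LHX3 thus stood in the same order and at nearly the same levels as LHX1. DMRT3, a dI6 factor below the filter on mean TPM, had 12 reads in library A, 4 in library B and 57 at HH19, so its HH14 order was opposite to that of LHX5. TLX3, a dI3 and dI5 factor, had 0, 1 and 16 reads. LMX1B, which shares dI5 neurons with TLX3, had its fewest reads at HH19, where TLX3 had its most. The LMX1B difference between HH19 and library B was not detectable with the reads as recovered, and LMX1B is also expressed in the roof plate. An opposite course of the 2 genes in dI5 neurons therefore cannot be read from these values.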
